A study of Fragaria x ananassa with 9 samples.

Results

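Early flavonoid biosynthesis was followed through 8 unigenes (assembled transcript clusters) that the annotation assigns to the steps from cinnamate 4-hydroxylase (C4H) to flavonol synthase (FLS). They are 8 of the 50285 unigenes listed and were taken by identifier: 1 unigene of C4H, 1 of chalcone synthase (CHS), 2 of chalcone isomerase (CHI), 1 of flavanone 3-hydroxylase (F3H), 1 of flavonoid 3'-hydroxylase (F3'H) and 2 of FLS. They had been selected on their TPM over the 3 stages, with earlier results of these same libraries known. Stage differences of the 8 are therefore a description: no p-value is given for any of them, and counts of how many of the 8 passed a limit describe them and test nothing.

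RNA-Seq was done on petals of Sijihong, a red-petalled cultivar obtained from Pink Princess × Pretty Beauty. It belongs to the pink-flowered strawberries, which derive from hybridization between Fragaria and Potentilla. Petals were taken from the young bud (PF_L), at the beginning of coloration (PF_Z) and from the big bud (PF_D), with 3 biological replicates per stage. No treatment or transgene was involved, and all 9 libraries belong to this 1 cultivar, so stage is the only factor compared. Values are TPM, transcript abundance corrected for transcript length and brought to a common total per library. TPM keeps no read counts, so the depth behind a single value is unknown.

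Flavonoids are made from phenylalanine. C4H hydroxylates cinnamic acid in the general phenylpropanoid pathway, CHS condenses coumaroyl-CoA with malonyl-CoA into a chalcone, CHI closes the ring to a flavanone, and F3H turns flavanones into dihydroflavonols. F3'H adds a second hydroxyl group to the B ring, which sets the cyanidin and quercetin series apart from the pelargonidin and kaempferol series. Dihydroflavonols are a branch point, since FLS converts them into flavonols and dihydroflavonol 4-reductase (DFR) leads them on to anthocyanins, the red pigments of many petals.

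The letters available for these enzymes were the primers that the study designed for qRT-PCR. Primer pairs are shown here for CHI and FLS, the enzymes with 2 unigenes each among the 8, because a single pair was listed for each of these enzymes. Each is written from its 5′ end. Which unigene a pair copies was not determined, as unigene sequences were not used here.
FpCHI forward: agcatcaccctctaccctcat
FpCHI reverse: acccactgcacccatagctg
FpFLS forward: agctccaatatcttgccctcca
FpFLS reverse: agtagtcaagctgtgtgggaga

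The tissue was checked with marker lists. Petal and stamen class B MADS-box genes, 7 of 7 tested and led by PMADS2, summed to 3219 to 3394 TPM in PF_L, 2860 to 3556 TPM in PF_Z and 2896 to 3529 TPM in PF_D. Light-harvesting genes of green tissue, 31 of 31 tested and led by LHCA3, summed to 5057 to 7973 TPM in PF_L, 1734 to 6665 TPM in PF_Z and 498 to 1933 TPM in PF_D, so their share of the RNA differed strongly between PF_L and PF_D. PF_Z replicate 3, at 1734 TPM, stood below the other PF_Z libraries, at 4146 and 6665 TPM. Anther and pollen genes, 22 of 24 tested, summed to 3351 to 3580 TPM in PF_L, 4228 to 5160 TPM in PF_Z and 3457 to 4548 TPM in PF_D, led by DFC. The anther regulators AMS and DYT1 did not pass 5 TPM in any library. Other members of this list went both ways between PF_L and PF_D. The pollen gene LAT52 was at 0.440 to 1.23 TPM in PF_L, 2.04 to 4.77 TPM in PF_Z and 7.82 to 63.8 TPM in PF_D, highest in PF_D replicate 1. In contrast, SF21 (TRINITY_DN22857_c0_g2), named after a pollen-specific protein, was at 32.8 to 36.6 TPM in PF_L and 9.14 to 13.9 TPM in PF_D. Carpel genes, 5 of 6 tested and led by AGL1, summed to 30.2 to 58.7 TPM over the 9 libraries. None of these markers was at 0 in all libraries, and the part of other tissues in the results below was not tested. In such bulk samples, fewer cells of a type and less RNA per cell cannot be told apart.

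All 8 unigenes were higher in PF_Z than in PF_L, in every library of PF_Z against every library of PF_L, by 4.09 to 13.0 times as a ratio of mean TPM. Between PF_D and PF_Z most differences were small: 7 unigenes had their highest mean in PF_Z, and CHS1 alone had it in PF_D. All 8 remained above PF_L in PF_D, by 2.09 to 20.0 times, again without overlap between libraries.

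**Figure D1:**
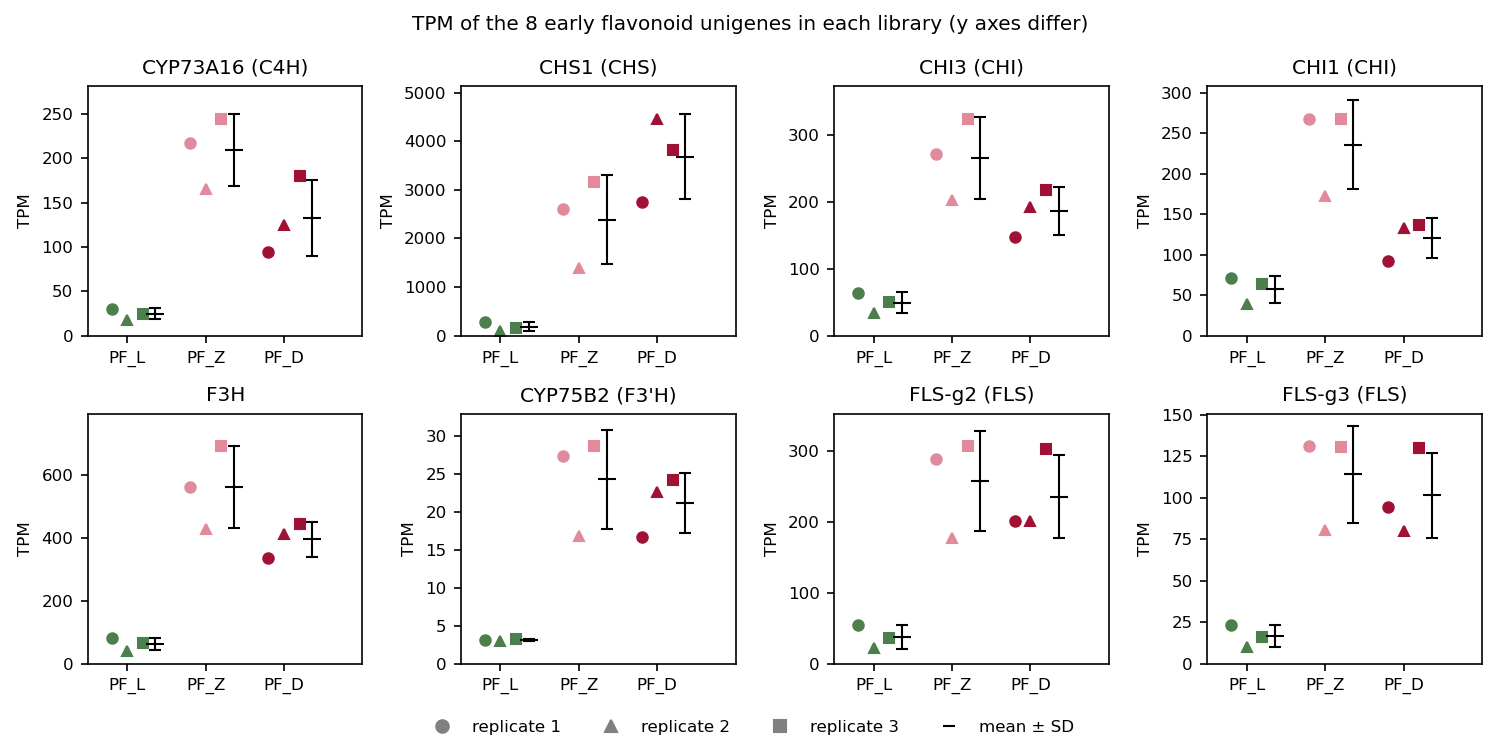
TPM (y axis, linear from 0, scale differing between panels) of the 8 unigenes in the 3 libraries of each stage (x axis), with the mean and SD beside them. In each panel the 3 PF_L points lie below all PF_Z and PF_D points, and only for CHI1 do the PF_D points lie below all PF_Z points.

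C4H was represented by CYP73A16 (TRINITY_DN21857_c0_g1, 1866 bp), a cytochrome P450 of the endoplasmic reticulum that acts before the flavonoid pathway proper. Its TPM was 30.7, 18.3 and 24.8 in PF_L, 217, 165 and 244 in PF_Z, and 94.5, 124 and 179 in PF_D. The 3 stages averaged 24.6 ± 6.22, 209 ± 40.5 and 133 ± 43.1 TPM (SD, n = 3 each). The PF_D libraries were spread over a 1.90-fold range, the widest of the 8 unigenes at that stage, and the upper one reached into the PF_Z range. On the log2(TPM + 1) scale the fitted difference was 3.05 for PF_Z minus PF_L, -0.68 for PF_D minus PF_Z and 2.37 for PF_D minus PF_L, with a standard error of 0.26. This single unigene held 93.5% to 99.8% of the TPM of all unigenes with the KEGG number of C4H.

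CHS catalyses the first committed step of flavonoid synthesis, and CHS1 (TRINITY_DN26374_c0_g4) was the most abundant of the 8 in every library. CHS1 had 284, 100.07 and 169 TPM in PF_L, 2614, 1386 and 3161 TPM in PF_Z, and 2746, 4464 and 3829 TPM in PF_D. Its means were 184 ± 92.9, 2387 ± 909 and 3680 ± 869 TPM (SD, n = 3 each). It was the only unigene of the 8 whose mean was higher in PF_D than in PF_Z, by 1.54 times, yet the libraries of both stages overlapped. The fitted log2 differences were 3.73 for PF_Z minus PF_L, 0.68 for PF_D minus PF_Z and 4.41 for PF_D minus PF_L, with a standard error of 0.41, the largest among the 8. CHS1 is a fragment of 260 bp, much shorter than a full chalcone synthase message. Other CHS unigenes came from the same assembly cluster, so reads of 1 gene may have been divided between them and its level is uncertain.

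CHI was represented by CHI3 (TRINITY_DN16164_c0_g1, 1030 bp) and CHI1 (TRINITY_DN20802_c1_g2, 1319 bp), which were the only unigenes with the KEGG number of this enzyme. CHI3 had 64.4, 33.7 and 50.1 TPM in PF_L, 271, 202 and 324 TPM in PF_Z, and 147, 192 and 218 TPM in PF_D, with means of 49.4 ± 15.4, 266 ± 61.1 and 186 ± 35.8 TPM (SD, n = 3 each). CHI1 had 70.8, 38.9 and 63.4 TPM in PF_L, 268, 173 and 267 TPM in PF_Z, and 92.0, 133 and 136 TPM in PF_D, with means of 57.7 ± 16.7, 236 ± 55.0 and 120 ± 24.7 TPM (SD, n = 3 each). CHI1 was the only one of the 8 whose PF_D libraries all lay below the PF_Z libraries, at 0.510 times the PF_Z mean. The fitted log2 difference for PF_D minus PF_Z was -0.96 for CHI1 and -0.51 for CHI3, each with a standard error of 0.26. For PF_Z minus PF_L it was 2.03 for CHI1 and 2.42 for CHI3, and for PF_D minus PF_L it was 1.07 and 1.92 in the same order.

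The balance of these CHI unigenes differed between stages. CHI3 over CHI1 was 0.790 to 0.910 in PF_L, 1.01 to 1.21 in PF_Z and 1.45 to 1.60 in PF_D, so the 3 stages did not overlap. CHI3 thus made up 44.1% to 47.6% of the TPM under the KEGG number of CHI in PF_L, 50.2% to 54.8% in PF_Z and 59.1% to 61.5% in PF_D. CHI1 was matched to a chalcone isomerase of cultivated strawberry, but CHI3 only to a probable chalcone isomerase of Arabidopsis. Whether CHI3 closes the ring was not tested, so this is no shift within a shown enzyme activity.

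F3H (TRINITY_DN19052_c0_g2, 1487 bp), matched to a flavanone 3-hydroxylase of cultivated strawberry, had the second highest mean at each stage. Its TPM was 80.2, 41.1 and 65.3 in PF_L, 562, 428 and 690.0 in PF_Z, and 334, 410.4 and 442 in PF_D. The means were 62.2 ± 19.7, 560.1 ± 131 and 395 ± 55.4 TPM (SD, n = 3 each), with 1 PF_D library just above the lowest of PF_Z. The fitted log2 differences were 3.18 for PF_Z minus PF_L, -0.48 for PF_D minus PF_Z and 2.69 for PF_D minus PF_L, with a standard error of 0.26. F3H carried 79.3% to 98.0% of the TPM under its KEGG number.

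CYP75B2 (TRINITY_DN25650_c2_g2, 1803 bp), the F3'H, had the lowest level of the 8 in every library. It stood at 3.14, 2.97 and 3.24 TPM in PF_L, 27.3, 16.8 and 28.6 TPM in PF_Z, and 16.7, 22.6 and 24.2 TPM in PF_D. The PF_L libraries differed by only 1.09-fold, the closest agreement of any of the 8 at any stage, while PF_Z and PF_D overlapped over most of their range. Means were 3.12 ± 0.137, 24.2 ± 6.49 and 21.2 ± 3.95 TPM (SD, n = 3 each). The fitted log2 differences were 2.58, -0.17 and 2.41 for PF_Z minus PF_L, PF_D minus PF_Z and PF_D minus PF_L, with a standard error of 0.22. As PF_L lay near 3 TPM, the added 1 shrinks the fitted differences against it: on the TPM scale itself, PF_Z was 7.77 times and PF_D 6.79 times the PF_L mean.

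FLS, the enzyme that draws dihydroflavonols into flavonols, had 2 unigenes of 1 assembly cluster, called here FLS-g2 (TRINITY_DN19380_c0_g2, 847 bp) and FLS-g3 (TRINITY_DN19380_c0_g3, 504 bp). FLS-g2 had 54.3, 21.2 and 35.9 TPM in PF_L, 288, 177 and 306 TPM in PF_Z, and 201.0, 201.2 and 303 TPM in PF_D. FLS-g3 had 23.3, 9.93 and 16.2 TPM in PF_L, 131, 80.3 and 131 TPM in PF_Z, and 94.1, 79.8 and 130 TPM in PF_D. For both, PF_D and PF_Z covered nearly the same range, well above PF_L. The means of FLS-g2 were 37.2 ± 16.6, 257 ± 70.1 and 235 ± 58.6 TPM and those of FLS-g3 16.5 ± 6.70, 114 ± 29.1 and 101 ± 25.7 TPM (SD, n = 3 each). The fitted log2 differences of FLS-g2 were 2.81, -0.12 and 2.70 (standard error 0.33) for PF_Z minus PF_L, PF_D minus PF_Z and PF_D minus PF_L, against 2.76, -0.16 and 2.59 (standard error 0.31) for FLS-g3.

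FLS-g2 was 2.14 to 2.52 times FLS-g3 in all 9 libraries, with stage means of 2.23 ± 0.0974, 2.25 ± 0.0817 and 2.33 ± 0.193 (SD, n = 3 each). As they share a cluster, they may be pieces or copies of 1 gene, and counting could have split reads between them. Their agreement is therefore not that of independent genes, and each level alone is uncertain.

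Across all unigenes tested by limma on log2(TPM + 1), 6.84% passed the limits of a log2 difference of 1 and a p of 0.05 after Benjamini-Hochberg adjustment for PF_Z minus PF_L, 2.15% of all as higher and 4.70% as lower. All 8 members were higher past these limits, a count that their selection used. For PF_D minus PF_L, 25.1% of all unigenes passed, 9.38% as higher and 15.7% as lower, and again 8 of the 8 were higher past the limits. For PF_D minus PF_Z, 18.0% of all unigenes passed, 8.89% as higher and 9.07% as lower, and 0 of the 8, although CHI1 at -0.96 was just inside the limit of 1 and 2 of the 8 had an unadjusted p under 0.05, as did 39.1% of all tested unigenes. CHI1 passed as lower under scaling by median ratios (-1.06) and without PF_Z replicate 2 (-1.17), PF_D replicate 2 (-1.04) or PF_D replicate 3 (-1.06). CHI1 also fell short of 1 for PF_D minus PF_L without PF_L replicate 2 (0.81), PF_D replicate 2 (0.99) or PF_D replicate 3 (0.97).

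The share of unigenes whose libraries did not overlap was 31.4% between PF_Z and PF_L, 8.26% with PF_Z higher and 23.2% with PF_Z lower, against 8 of the 8. It was 50.2% between PF_D and PF_L, 20.6% with PF_D higher and 29.5% with PF_D lower, again against 8 of the 8, and 40.7% between PF_D and PF_Z, 22.6% with PF_D higher and 18.2% with PF_D lower, against 1 of the 8, CHI1, which was lower. As each stage enters 2 of the comparisons, these do not stand alone. The median fitted difference over all tested unigenes was -0.21 for PF_Z minus PF_L, 0.08 for PF_D minus PF_Z and -0.12 for PF_D minus PF_L, beside 2.79, -0.33 and 2.50 for the 8. Scaling by median ratios moved CHI1, the smallest difference of the 8, to 2.26 for PF_Z minus PF_L and 1.20 for PF_D minus PF_L, and CHS1, the largest, to 3.97 and 4.54.

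**Figure D2:**
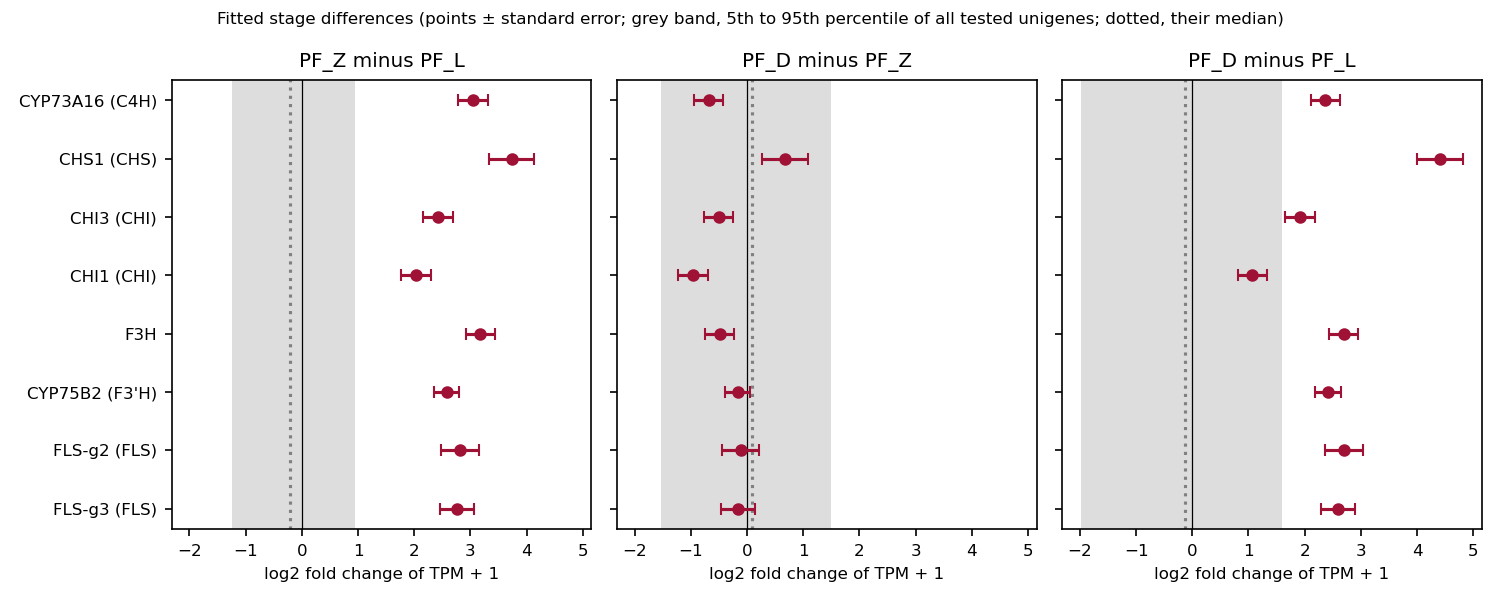
Fitted log2 difference of TPM + 1 (x axis) for each of the 8 unigenes (y axis) in the 3 comparisons, as points with their standard error, over the 5th to 95th percentile (grey band) and median (dotted line) of all tested unigenes. All 8 points lie right of the band for PF_Z minus PF_L and inside it for PF_D minus PF_Z, and for PF_D minus PF_L only CHI1, at 1.07, lies inside.

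Ordered by mean TPM, which is corrected for length, PF_L gave CHS1, F3H, CHI1, CHI3, FLS-g2, CYP73A16, FLS-g3 and CYP75B2. Each unigene stood above the next in 3 of 3 libraries there, while between libraries only the step from CHS1 to F3H and that from FLS-g3 to CYP75B2 had no overlap. In PF_Z the order was CHS1, F3H, CHI3, FLS-g2, CHI1, CYP73A16, FLS-g3 and CYP75B2, and the 4 unigenes from CHI3 to CYP73A16 overlapped with their neighbours, although only CHI3 and FLS-g2 changed places within a library. In PF_D it was CHS1, F3H, FLS-g2, CHI3, CYP73A16, CHI1, FLS-g3 and CYP75B2, and the 5 from FLS-g2 to FLS-g3 overlapped with their neighbours, CHI1 changing places within a library with CYP73A16 and with FLS-g3. The ends of the order, CHS1 and F3H above and CYP75B2 below, were thus alike at each stage.

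Added together, the 8 unigenes came to 611, 266 and 428 TPM in PF_L, 4378, 2628 and 5152 TPM in PF_Z, and 3725, 5627 and 5261 TPM in PF_D. That was 0.0268% to 0.0615% of a library in PF_L, 0.264% to 0.518% in PF_Z and 0.375% to 0.566% in PF_D. CHS1 alone supplied 37.6% to 46.5% of this sum in PF_L, 52.7% to 61.4% in PF_Z and 72.8% to 79.3% in PF_D, without overlap between stages. Without CHS1, the other 7 came to 166 to 327 TPM in PF_L, 1242 to 1991 TPM in PF_Z and 979 to 1432 TPM in PF_D. CHS1 over F3H was 2.85 ± 0.599 in PF_L, 4.16 ± 0.798 in PF_Z and 9.25 ± 1.42 in PF_D (SD, n = 3 each), PF_D lying above both other stages in every library.

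The remaining ratios along the pathway varied less. F3H over the sum of both FLS unigenes was 1.20 ± 0.150, 1.53 ± 0.169 and 1.20 ± 0.228 over the 3 stages, F3H over CYP75B2 was 19.8 ± 5.86, 23.4 ± 2.57 and 18.8 ± 1.04, and F3H over CYP73A16 was 2.50 ± 0.214, 2.67 ± 0.134 and 3.10 ± 0.563 (SD, n = 3 each). DFR, which competes with FLS for dihydroflavonols, behaved otherwise: the FLS sum was 42.2 to 135 times DFR (TRINITY_DN14121_c0_g3) in PF_L, 2.74 to 4.78 times in PF_Z and 0.345 to 1.14 times in PF_D. In PF_L, DFR was at 0.23 to 1.84 TPM, so the ratio there rests on values of very low abundance. The sum holds FLS-g2 and FLS-g3 only. Other unigenes under the KEGG number of FLS are left out, among them TRINITY_DN21644_c0_g2 at 494 ± 35.2 TPM in PF_D. DFR likewise stands for 1 unigene. Left out is TRINITY_DN25108_c0_g1, at 7.57 ± 0.878 TPM in PF_L. It is also described as a dihydroflavonol 4-reductase, though its match in woodland strawberry is a cinnamoyl-CoA reductase 2-like protein. The ratio thus depends on these choices.

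**Figure D3:**
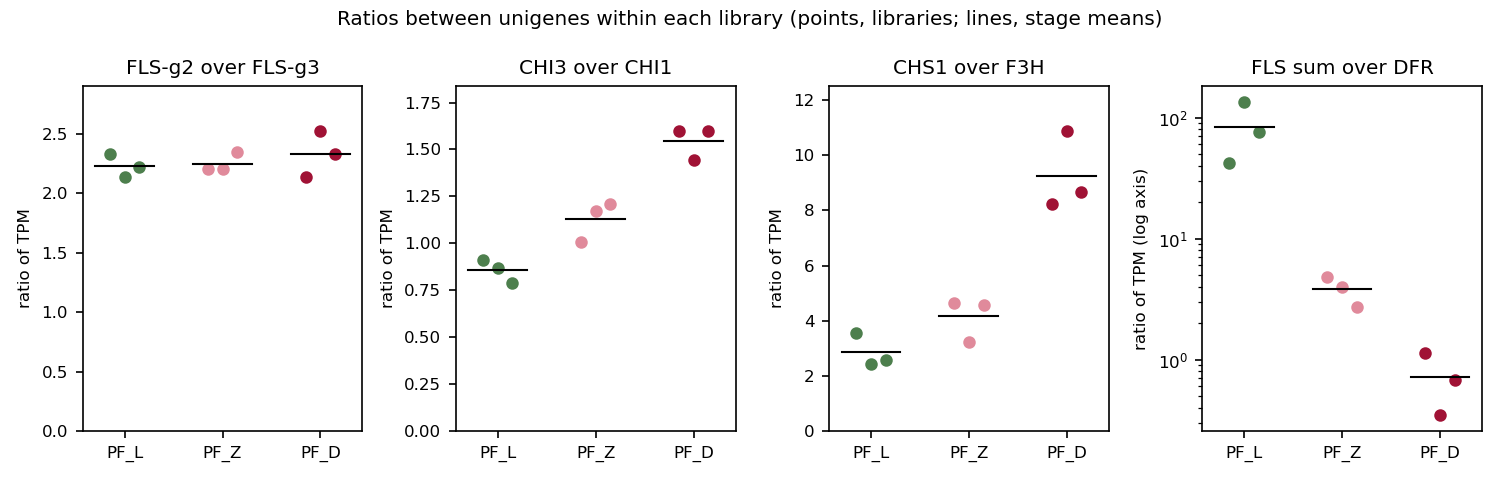
Ratio of TPM between unigenes within each library (y axis, linear from 0 except for the FLS sum over DFR, which has a log axis) at the 3 stages (x axis), with points for libraries and lines for stage means. FLS-g2 over FLS-g3 stays between 2.14 and 2.52, while CHI3 over CHI1 and the FLS sum over DFR separate all 3 stages.

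Within PF_L and PF_Z the 8 unigenes shared their lowest library, though CYP75B2 hardly varied within PF_L, and within PF_D the lowest library was not the same for all. PF_L replicate 2 was the lowest PF_L library for 8 of the 8 and PF_Z replicate 2 the lowest PF_Z library for 8 of the 8, whereas PF_D replicate 1 was the lowest PF_D library for 7, FLS-g2 by only 201.0 against 201.2 TPM and FLS-g3 being lowest in replicate 2. Deviations from the stage mean in PF_D replicate 2 ran from -0.31 for FLS-g3 to 0.31 for CHS1 on the log2(TPM + 1) scale. The median deviation of the 8 from their stage means was -0.52 in PF_L replicate 2, -0.44 in PF_Z replicate 2 and -0.31 in PF_D replicate 1 on the log2(TPM + 1) scale. On the other side, it was 0.42 in PF_L replicate 1, 0.28 in PF_Z replicate 3 and 0.22 in PF_D replicate 3. Of the 15508 tested unigenes with a mean of at least 10 TPM, 37.3% were lowest in PF_L replicate 2, 37.2% in PF_Z replicate 2 and 46.9% in PF_D replicate 1, and 8.62% were lowest in all of these, as were 7 of the 8. The median deviation over all those unigenes was -0.01, -0.05 and -0.05 in these libraries.

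Of the 17 other entry and late pathway unigenes with such a mean, 11 were lowest in PF_L replicate 2, 14 in PF_Z replicate 2 and 11 in PF_D replicate 1. These 17 carry the KEGG numbers of phenylalanine ammonia-lyase, 4-coumarate:CoA ligase, DFR, anthocyanidin synthase and anthocyanidin 3-O-glucosyltransferase. Outside them, DLO2 (TRINITY_DN23412_c0_g1), under the FLS number, was highest in replicate 2 of PF_L (457 TPM) and of PF_Z (441 TPM). PKS1 (TRINITY_DN26374_c0_g2), under the CHS number, was lowest in both, at 17.7 and 343 TPM. The summed light-harvesting genes were also lowest in PF_L replicate 2, at 5057 TPM, but in PF_Z they were lowest in replicate 3, at 1734 TPM, where 6 of the 8 were highest, and in PF_D in replicate 2, at 498 TPM. The part of bud age or tissue makeup in these differences was not tested. Without PF_L replicate 2 and PF_Z replicate 2, an alternative chosen after seeing the data, the fitted PF_Z minus PF_L difference was 3.71 for CHS1, 3.09 for F3H and 1.98 for CHI1. Without PF_Z replicate 3 it was 3.49, 3.01 and 1.92 in the same order.

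**Figure D4:**
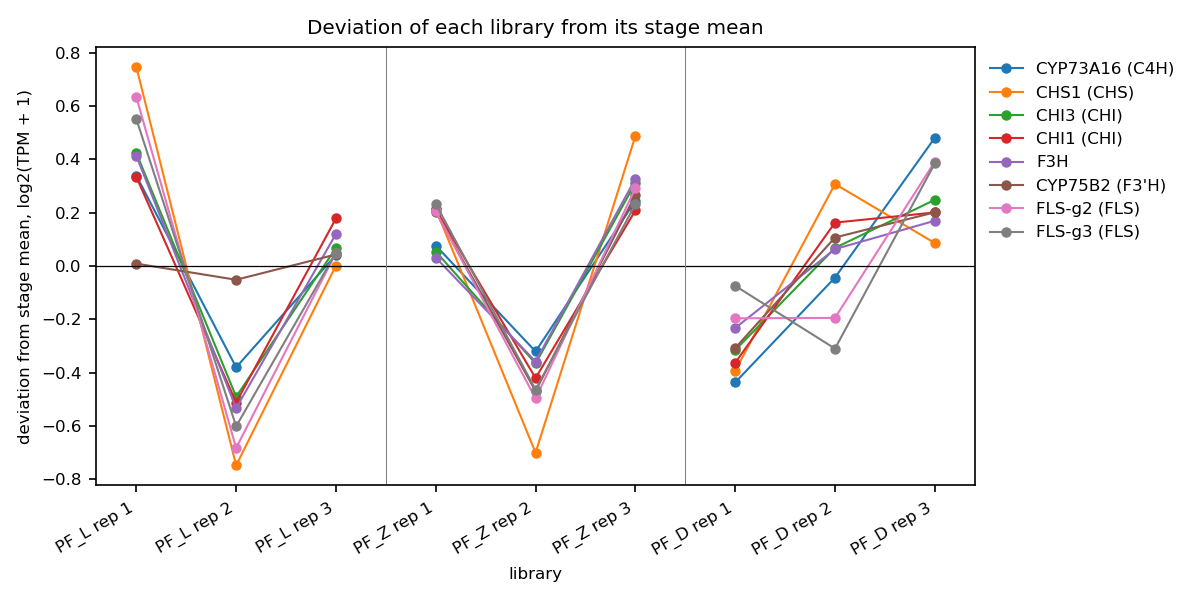
Deviation of each library from its stage mean in log2(TPM + 1) (y axis) for the 9 libraries (x axis), with 1 coloured line per unigene within each stage. All lines dip below 0 in PF_L replicate 2 and PF_Z replicate 2, where CYP75B2 in PF_L, at -0.05, is nearest to 0.

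By the root mean square difference of centred log2(TPM + 1) values over the 9 libraries, the closest pair of the 8 was FLS-g2 and FLS-g3 (0.0838), followed by CYP73A16 and F3H (0.199) and by F3H and FLS-g2 (0.238). The farthest pairs were CHS1 with CHI1 (1.38) and CHS1 with CHI3 (1.04). CHS1 and CHI1 were thus at opposite ends: CHS1 had its highest mean in PF_D, and CHI1 had the largest decrease of the 8 between PF_D and PF_Z.

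Outside the 8, the same measure over 10990 named unigenes placed RBK1 (TRINITY_DN23404_c0_g1), a receptor-like cytosolic kinase in Arabidopsis thaliana, nearest to F3H (0.285), CYP75B2 (0.216), FLS-g2 (0.225) and FLS-g3 (0.212). RBK1 averaged 9.46 ± 2.02, 66.7 ± 22.2 and 65.8 ± 7.34 TPM over the 3 stages (SD, n = 3 each). Nearest to CYP73A16 was CYP75B2 TRINITY_DN11436_c0_g1 (0.295), a shorter F3'H unigene, which came next after RBK1 for F3H, CYP75B2 and both FLS unigenes. CHS1 was nearest to PKS1 TRINITY_DN26374_c0_g2 (0.216) and CHSE TRINITY_DN18433_c0_g3 (0.290), both under the KEGG number of CHS. CHI3 was nearest to GAST1 (0.322), a gibberellin-regulated protein in tomato, and CHI1 to TDL1 (0.312) and the cotton fibre protein homologue E6 (0.332). E6 averaged 109 ± 19.8, 472 ± 141 and 243 ± 82.9 TPM, with its highest mean in PF_Z as for CHI1.

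The KEGG numbers of the same 6 enzymes held 35 other tested unigenes. For PF_Z minus PF_L, 6 rose and 4 fell with a median log2 difference of -0.06, beside 2.15% and 4.70% of all tested unigenes. For PF_D minus PF_Z 8 rose and 4 fell with a median of 0.52, beside 8.89% and 9.07% of all. For PF_D minus PF_L 13 rose and 6 fell with a median of 0.49, beside 9.38% and 15.7% of all. The calls were unevenly spread: for PF_D minus PF_L, 4 of 5 CHS unigenes and 2 of 3 F3H unigenes rose, while of 24 FLS unigenes 6 rose and 5 fell. The only other C4H unigene, TRINITY_DN12557_c0_g1, averaged 0.770 ± 0.431 TPM in PF_D and 1.12 ± 0.867 TPM in PF_L and passed in no comparison.

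Among the other CHS unigenes, PKS1 (TRINITY_DN26374_c0_g2, 864 bp), named after a polyketide synthase of raspberry, was the most abundant. It had 733, 1107 and 1030.5 TPM in PF_D, against 55.0, 17.7 and 30.3 TPM in PF_L, with a log2 difference of 4.88 (SE 0.37, adjusted p = 8.62e-06). The largest rise was that of the PKS1 fragment TRINITY_DN18433_c0_g5 (269 bp), at 571 ± 35.2 TPM in PF_D and 16.1 ± 10.1 TPM in PF_L, with a log2 difference of 5.26 (SE 0.39, adjusted p = 7.26e-06). CHS1 over the longer PKS1 was 5.46 ± 0.265 in PF_L, 4.69 ± 0.567 in PF_Z and 3.83 ± 0.175 in PF_D (SD, n = 3 each). Both share an assembly cluster and the same closest match in woodland strawberry, a polyketide synthase 1, so they may be pieces of 1 gene. CHS1 held 65.2% to 76.1% of the TPM under the KEGG number of CHS.

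Of F3'H, the CYP75B2 fragment TRINITY_DN11436_c0_g1 (348 bp) matched a flavonoid 3'-hydroxylase of Fragaria chiloensis. It stood at 19.2, 26.0 and 35.9 TPM in PF_D, against 2.66, 2.56 and 3.09 TPM in PF_L, a log2 difference of 2.85 (SE 0.25, adjusted p = 2.13e-05). It was 0.888 ± 0.0577, 1.27 ± 0.0854 and 1.26 ± 0.192 times the longer CYP75B2 over the 3 stages (SD, n = 3 each), and both may be pieces of 1 gene. A further cytochrome P450, CYP76M6 (TRINITY_DN13016_c0_g4), fell between PF_L and PF_D (adjusted p = 0.0286) and was listed at 0 in all PF_D libraries. PF_L replicate 1 held most of its level, at 7.20 TPM against 0.63 and 1.55 TPM in the other PF_L libraries.

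Further unigenes described as flavonoid 3'-monooxygenases did not carry the KEGG number of F3'H, and the 2 most abundant of them ran the other way (added after their values were seen). CYP75B2 TRINITY_DN11406_c0_g2 averaged 3.25 ± 1.87 TPM in PF_D and 24.4 ± 2.47 TPM in PF_L, a log2 difference of -2.70 (SE 0.33, adjusted p = 1.86e-04). CYP75B2 TRINITY_DN20791_c0_g4, whose closest match in woodland strawberry is a cytochrome P450 71A1-like protein, averaged 1.07 ± 0.494 TPM in PF_D and 24.8 ± 2.68 TPM in PF_L, a log2 difference of -3.66 (SE 0.22, adjusted p = 2.01e-06). With enzymes assigned by description, the CYP75B2 member held 3.60% to 4.67% of F3'H TPM in PF_L, 26.4% to 31.1% in PF_Z and 34.0% to 39.7% in PF_D.

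The other F3H unigenes were oxygenases of low abundance whose best matches were not flavanone hydroxylases. TRINITY_DN23350_c0_g2, a probable 2-oxoglutarate-dependent dioxygenase, averaged 27.5 ± 2.68 TPM in PF_D and 6.65 ± 1.25 TPM in PF_L, with a log2 difference of 1.90 (SE 0.20, adjusted p = 7.27e-05). CODM (TRINITY_DN27188_c0_g3), named after codeine O-demethylase of poppy, had the largest rise at 2.03 (SE 0.24, adjusted p = 1.44e-04).

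The KEGG number of FLS also covered dioxygenases with other names, and the most abundant ones ran unlike FLS-g2 and FLS-g3. DLO2 (TRINITY_DN23412_c0_g1), a relative of salicylate hydroxylases in Arabidopsis whose closest match in woodland strawberry is called flavonol synthase 3-like, averaged 158 ± 47.4 TPM in PF_D and 371 ± 107 TPM in PF_L, a log2 difference of -1.22 (SE 0.37, adjusted p = 0.0287). At5g05600 (TRINITY_DN21644_c0_g2), an oxygenase named by its Arabidopsis locus, rose most. Its closest match in woodland strawberry is called flavonol synthase/flavanone 3-hydroxylase-like. It had 6.99, 7.75 and 5.59 TPM in PF_L, 83.0, 66.8 and 78.0 TPM in PF_Z, and 533, 482 and 466 TPM in PF_D. Its log2 difference for PF_D minus PF_L was 6.0 (SE 0.15, adjusted p = 1.59e-08), and no library of 1 stage reached those of another. Another DLO2 (TRINITY_DN21420_c0_g2) fell most, at 0.620 ± 0.125 TPM in PF_D and 17.8 ± 8.80 TPM in PF_L (log2 difference -3.40, SE 0.40, adjusted p = 1.37e-04). FLS-g2 held 2.53% to 33.4% and FLS-g3 1.18% to 14.2% of the TPM under this number. Scarcer unigenes under it that were named FLS, added after their values were seen, went both ways for PF_D minus PF_L. TRINITY_DN19311_c1_g5 fell from 7.47 ± 0.270 to 0.0967 ± 0.0635 TPM (log2 difference -2.95, SE 0.26, adjusted p = 2.34e-05). TRINITY_DN19380_c0_g1 rose from 0.530 ± 0.236 to 3.21 ± 0.859 TPM (log2 difference 1.45, SE 0.27, adjusted p = 0.00201).

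**Figure D5:**
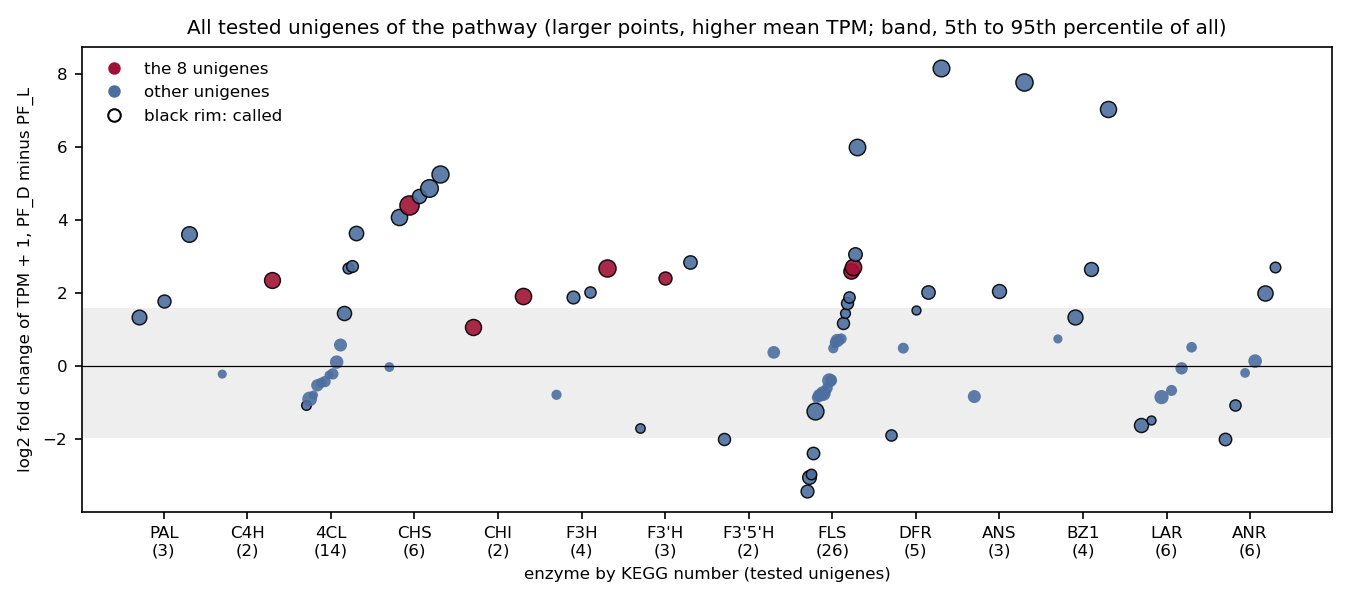
Fitted log2 difference of TPM + 1 for PF_D minus PF_L (y axis) of every tested unigene by enzyme (x axis, number tested in brackets), with the 8 unigenes in red, larger points for a higher mean TPM, black rims for calls and a band from the 5th to the 95th percentile of all tested unigenes. The CHS unigenes other than CHS2 lie above 4, the FLS number spans -3.40 to 6.0, and DFR, ANS and BZ1 each have 1 unigene above 7.

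The steps before, after and beside these enzymes held 43 tested unigenes of 45. For PF_Z minus PF_L 13 rose and 0 fell, with 26 of the 43 and 26.7% of all tested unigenes at an unadjusted p under 0.05. For PF_D minus PF_Z 9 rose and 9 fell, and for PF_D minus PF_L 17 rose and 7 fell. The medians were 0.43, 0.12 and 0.38. Of all tested unigenes, 6.84%, 18.0% and 25.1% passed in these comparisons. Phenylalanine ammonia-lyase, which opens the pathway, rose in 3 of 3 unigenes for PF_D minus PF_L. Under the KEGG number of 4-coumarate:CoA ligase (4CL), which supplies CHS, 4 of 14 rose and 1 fell. That number also covered 4CL-like and acyl-activating enzymes. Looked up after their values were seen, the risers were TRINITY_DN23619_c0_g1, described as 4CL, and unigenes of the 4CL-like 4CLL6 and 4CLL7. The faller was AAE2, described as an acyl-activating enzyme. PAL1 (TRINITY_DN17398_c0_g2) had 148, 220 and 201 TPM in PF_D, against 19.9, 10.4 and 14.2 TPM in PF_L, with a log2 difference of 3.62 (SE 0.26, adjusted p = 6.55e-06). The most abundant 4CL, 4CL2 (TRINITY_DN23314_c0_g1), averaged 23.6 ± 13.7 TPM in PF_D and 105 ± 20.8 TPM in PF_Z, a log2 difference of -2.31 (SE 0.44, adjusted p = 0.00407), while its difference of 1.41 for PF_Z minus PF_L did not pass (adjusted p = 0.0742).

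The most abundant unigenes of the late enzymes rose between PF_Z and PF_D, where 0 of the 8 passed the limits. ANS (TRINITY_DN20632_c0_g1), which forms anthocyanidins, averaged 836 ± 155 TPM in PF_D and 234 ± 70.8 TPM in PF_Z with a log2 difference of 1.87 (SE 0.36, adjusted p = 0.00407), and for DFR and the glucosyltransferase GT1 (TRINITY_DN20511_c0_g4) the differences were 2.4 (SE 0.47, adjusted p = 0.00445) and 2.76 (SE 0.29, adjusted p = 1.43e-04). Whether these differences exceed those of the 8 was not tested.

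For the side branches, the KEGG number of F3'5'H, which would lead to delphinidins, was led by CYP76B10 (TRINITY_DN23834_c0_g1), described as a geraniol 8-hydroxylase. CYP76B10 averaged 16.5 ± 4.78 TPM in PF_D and 12.7 ± 4.88 TPM in PF_L and passed in no comparison. Added after their values were seen, 2 closer matches fell for PF_D minus PF_L. They were CYP75B1 (TRINITY_DN23604_c1_g4), matched to a flavonoid 3',5'-hydroxylase-like protein (-1.99, SE 0.36, adjusted p = 0.00187), and CYP75A2 (TRINITY_DN13016_c0_g7), described as F3'5'H but without that number (-1.78, SE 0.47, adjusted p = 0.0146). CYP75B1 was, however, described as a flavonoid 3'-monooxygenase of Arabidopsis. With enzymes assigned by description it therefore counted as F3'H. Leucoanthocyanidin reductase (LAR) and anthocyanidin reductase (ANR) lead to proanthocyanidins. Under their KEGG numbers, 2 of 6 and 2 of 6 unigenes were lower in PF_D than in PF_L, and under ANR 2 were higher. The 2 lower ones under LAR were matched to a eugenol synthase and an isoflavone reductase-like protein. SNL6 (TRINITY_DN22095_c0_g1), the most abundant under ANR but described as a cinnamoyl-CoA reductase-like protein of rice, averaged 127 ± 37.4 TPM in PF_D and 30.8 ± 8.28 TPM in PF_L, a log2 difference of 1.99 (SE 0.28, adjusted p = 4.19e-04). ANR (TRINITY_DN18130_c0_g3), matched to an anthocyanidin reductase of cultivated strawberry and added after its values were seen, averaged 2.35 ± 0.730 TPM in PF_D and 12.5 ± 3.02 TPM in PF_L, a log2 difference of -2.01 (SE 0.29, adjusted p = 4.88e-04). Another unigene named ANR (TRINITY_DN15157_c0_g2), likewise added afterwards, went the other way. It averaged 9.46 ± 6.97 TPM in PF_D and 0.263 ± 0.0289 TPM in PF_L, a log2 difference of 2.71 (SE 0.55, adjusted p = 0.00385). The most abundant unigene under LAR, TRINITY_DN14874_c0_g4, matched to an isoflavone reductase homologue, averaged 21.4 ± 5.99 TPM in PF_D and 51.0 ± 4.20 TPM in PF_Z, a log2 difference of -1.25 (SE 0.21, adjusted p = 0.00218). LAR (TRINITY_DN13753_c0_g1), matched to a putative leucoanthocyanidin reductase of cultivated strawberry, was also added after its values were seen. This LAR averaged 1.67 ± 0.456 TPM in PF_L, 5.62 ± 2.33 TPM in PF_Z and 2.80 ± 0.523 TPM in PF_D. It was called higher for PF_Z minus PF_L (1.27, SE 0.29, adjusted p = 0.0242) and passed in no other comparison.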

How the data were processed

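The authors made 9 libraries of petal RNA and sequenced them with Illumina chemistry, and the reads were assembled with Trinity into unigenes, annotated by best protein match and KEGG number. The names are thus those of likely relatives, not of characterized strawberry genes. The deposited values are TPM, scaled by the authors for length and library total. The columns summed to 993148 to 994911 per library. The program behind the TPM is not given in the sources used here. The submitters' processing notes list Bowtie 0.12.2, HISAT2 2.0 and StringTie 1.3.0 and a mouse build, with no role.

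Unigenes with at least 1 TPM in at least 3 libraries were tested (47924, or 95.3%, among them all 8 members). The log2(TPM + 1) values entered limma 3.58.1 (R 4.3.3) in 1 model of the 9 libraries with a variance trend and Benjamini-Hochberg adjustment over all tested unigenes. A unigene was called, or said to rise or fall, at a log2 difference of at least 1 and an adjusted p under 0.05. A count model was not used, since TPM is not a count. The code was checked on simulated data. Descriptive values were computed with Python 3.11.15 and pandas 2.3.3, and figures with matplotlib 3.10.9.

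The 8 unigenes and the lists were chosen with earlier results of these data known. Other unigenes named are, per enzyme, the most abundant and, for the enzymes of the 8, those with the largest called rise and fall between PF_L and PF_D. For likeness, the 2 nearest named unigenes with at least 10 TPM in their highest stage were taken. Of each marker list, the most abundant unigene was named. CHS2, AMS, DYT1, LAT52, SF21 and the DFR unigene TRINITY_DN25108_c0_g1 were singled out after their values were seen. With 3 libraries against 3, an exact permutation test of a single value cannot give a two-sided p under 0.1, so none is given. Alternatives changed the added TPM, the filter, the scaling, the model, the enzyme assignment and the libraries. The primers were read from the study's supplementary table. Pigment measurements, qRT-PCR and hybrid progeny are not analysed here.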

Additional observations from a re-analysis of the deposited data

How the results depend on the processing

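The log2 differences of the 8 unigenes kept their sign for PF_Z minus PF_L and PF_D minus PF_L under each alternative run, from 1.77 to 4.10 and from 0.81 to 4.78. For PF_D minus PF_Z, FLS-g2 was at 0.03 without PF_Z replicate 3. CYP75B2 moved most with the added TPM: to 2.88 and 2.71 with 0.1 added and 1.82 and 1.68 with 5 added, for PF_Z minus PF_L and PF_D minus PF_L. TPM gives no depth, so values of a few TPM, such as CYP75B2 and DFR in PF_L, are the least precise.

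Calls over all unigenes numbered 3280, 8608 and 12042 for PF_Z minus PF_L, PF_D minus PF_Z and PF_D minus PF_L, and 1356, 3779 and 5384 with 5 added. The filter of 5 TPM, which tests fewer unigenes, gave 7478 for PF_D minus PF_L. Leaving out each library gave 1742 (without PF_L replicate 3) to 4719 (without PF_Z replicate 3) for PF_Z minus PF_L, with 1918, 1961, 2092 and 2039 without PF_L replicate 1, PF_L replicate 2, PF_Z replicate 1 and PF_Z replicate 2. Leaving out PF_L replicate 2 and PF_Z replicate 2 together, chosen after seeing the data, gave 1013. For PF_Z minus PF_L, 1029 of the calls were higher and 2251 lower, against 1419 and 1439 with median ratios and 1470 and 1439 with quantile normalization. Of the 8, 0 to 1 passed for PF_D minus PF_Z, the 1 being CHI1 with median ratios, without PF_Z replicate 2, PF_D replicate 2 or PF_D replicate 3, and without both libraries.

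Of the other unigenes of the same enzymes, 12 passed for PF_D minus PF_Z, but 6 with 5 added. With enzymes assigned by protein description, 5, 5 and 9 passed in the 3 comparisons, and 9 of the entry, late and branch unigenes for PF_D minus PF_Z, against 18 by KEGG number. The mean share of its enzyme's TPM over the 9 libraries was then 100% for CYP73A16 (98.2% by KEGG number), 91.3% for CHS1 (69.4%), 96.3% for F3H (90.7%), 23.1% for CYP75B2 (41.8%), 65.1% for FLS-g2 (16.9%) and 28.7% for FLS-g3 (7.41%). These shares rest on which unigenes count as the enzyme.

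Same-numbered libraries of different stages did not deviate together (r across unigenes of -0.10 to 0.04, over 0.1 in 0 of 9 pairs). No pairing by number was thus seen in the values, which cannot show whether same-numbered samples were collected together. With replicate number as a block, 2662, 8266 and 11794 unigenes were called and 8, 0 and 8 of the 8 passed.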
